A study of Mus musculus with 214 samples.

Results

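Liver RNA was compared between a younger and an older adult age in mice that lack Mgmt and never met a carcinogen. The comparison took the 12 Month10 and the 8 Week10 libraries of saline-injected Mgmt-null mice, 20 of the 214 samples of the series, by their genotype, treatment and time labels. All of these mice were C57BL/6, carried both copies of the RaDR and GPT reporter transgenes (RaDR+/+;GPT+/+) and were Mgmt-/-, so both ages shared the deletion, which was present in the whole animal. They received saline into the peritoneum on postnatal days 8 and 15, as vehicle for the N-nitrosodimethylamine (NDMA) given to other mice, and livers were taken 10 weeks (Week10) or 10 months (Month10) afterwards. Week10 held 4 females and 4 males, and Month10 held 7 females and 5 males; 1 further Month10 male appears in the labels without values. RaDR is a fluorescent reporter of homologous recombination, and GPT is a reporter of point mutations.

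Liver carries out its work through the hepatocyte, which makes plasma proteins, lipids and bile acids and clears hormones and foreign compounds. Its gene programme differs between the sexes, because growth hormone reaches the male liver in pulses and the female liver more steadily, and it differs along the lobule, with one set of enzymes beside the portal vein and another around the central vein. Mgmt encodes O6-methylguanine-DNA methyltransferase, which removes methyl groups from guanine after alkylation.

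Values were counts of 3′ end reads per gene divided by a size factor, called normalized counts here. Libraries held 727117 to 2550789 reads at Week10 (median 1341898.5) and 816013 to 1902743 at Month10 (median 1081986). A two-sided exact permutation test found no difference of mean reads (p = 0.52), which does not show that depth was equal. Mgmt lay between 0 and 7.55 at Week10 and between 0 and 9.24 at Month10, from at most 5 reads in a library. In wild-type (WT) saline livers it ranged from 20.53 to 55.43 at Week10 and from 28.68 to 41.58 at Month10, above every Mgmt-null library. The hepatocyte marker Alb was abundant throughout, with medians of 65238 at Week10 and 101713 at Month10. The labelled sex fitted Xist and the Y-linked genes in all 20 libraries. Each library had a mouse identifier of its own, and all 20 shared 1 batch label. The identifiers of mice and tissues carried 1 prefix at Week10 and another at Month10, so the time of life and that set of records cannot be told apart.

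Before any gene was compared, the libraries were seen to differ in make-up. For each library, the deviation of every gene from its own mean was set against the length of its longest annotated transcript. The slope of this line was -0.436 to 0.302 at Week10 (median -0.326) and 0.081 to 0.346 at Month10 (median 0.175; exact permutation test, p = 0.00019). Long transcripts were thus relatively more abundant at Month10, in all libraries but one. Reads of cytosolic ribosomal protein genes made up 0.567% to 1.979% of a Week10 library (median 1.198%) and 0.451% to 0.725% of a Month10 library (median 0.585%; exact permutation test, p = 0.00014). The 50 most abundant genes took a median of 44.016% of reads at Week10 and 38.159% at Month10 (exact permutation test, p = 0.0015).

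The exception was 1 Week10 male, D209001. Its length slope was 0.302, while the other 7 Week10 libraries lay between -0.436 and -0.276. It had the lowest ribosomal share of its group, 0.567%, against 1.141% to 1.979% in the other 7. Its mean correlation over genes was 0.794 with the other Week10 libraries and 0.886 with the Month10 libraries, so it stood with the older livers. On the first principal component, which held 40.3% of the variance, it had a score of 40.17, the other Week10 libraries had negative scores and all Month10 libraries positive ones. Its sex fitted its label, and Mgmt was at 3 reads in it. Single genes put it on either side. Akr1c6 was at 5669 in it, against 4618 to 6131 over Week10 and 1564 to 3012 over Month10. Ttr was at 12837 in it, against 61143 to 100450 in the other 7 and 11649 to 46849 over Month10. Genes given below without overlap between all libraries of both ages, such as Tkfc and F5, have it on the Week10 side by its label. This follows from how such genes are picked and is no sign of where it belongs. F5 was at 650.3 in it, against 192.3 to 263.2 in the other 7 and 777.2 to 1240 over Month10. Whether its label or its handling differed was not tested, and each Week10 range that includes it carries this doubt. Results below include D209001. The counts over all genes and over some of the gene groups are also given without it.

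**Figure D1:**
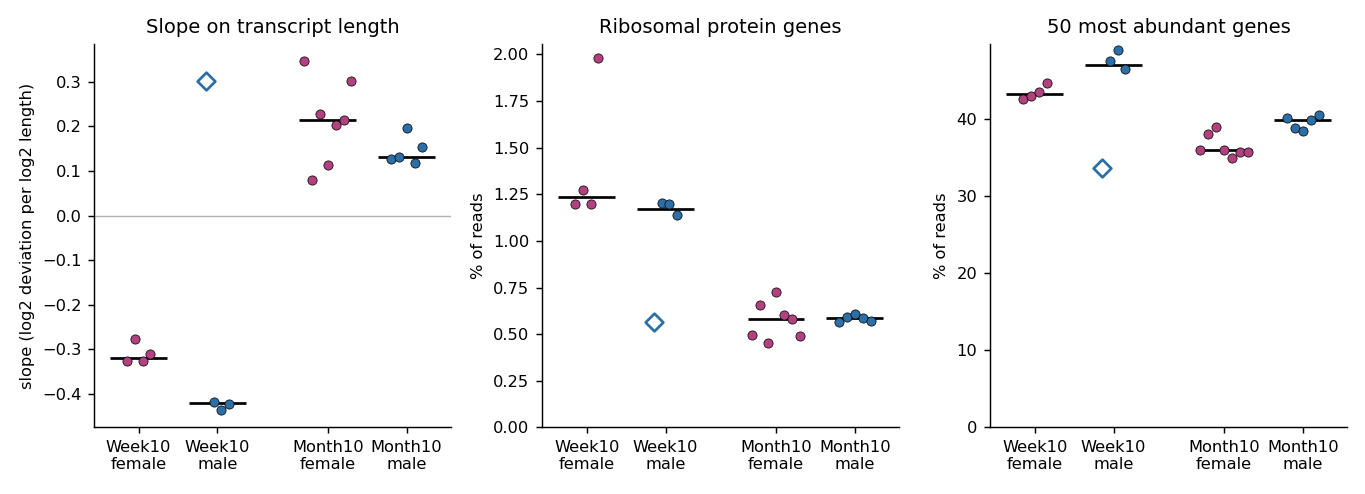
Measures of library make-up in each of the 20 saline Mgmt-null livers, by time and sex: the slope of gene deviations on transcript length (log2 per log2), the percentage of reads from ribosomal protein genes, and the percentage from the 50 most abundant genes. Points are libraries, bars are medians and the open diamond is D209001, which lies with the Month10 libraries in the first 2 panels and below every Month10 library in the last.

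Of 9755 genes with a mean normalized count of at least 5, 3058 (31.3%) were higher and 1844 (18.9%) lower at Month10. The test was limma on log2(normalized count + 1) with sex as a covariate, and a call required an adjusted p below 0.05 together with a log2 difference beyond 0.58 in either direction. Differences on this scale understate those of genes with low counts. A gene that passed the filter only through the group in which it was high had to differ, so the counts speak only of the genes tested. Lgr5, Vldlr, Cidec, Hao2, Sult2a3, Cyp3a16 and Jchain, named below, had Week10 means under 5 and were of this kind. Without D209001, 3499 of 9743 genes (35.9%) were higher and 2137 (21.9%) lower. The median over all tested genes was 0.23, and it moved to 0.61 when every library was scaled to the same total, to 0.10 with edgeR and to 0.07 with DESeq2, so a list median is best read against the median of all genes. The share of higher genes among those called was 62.4% here, 83.8% at the same total, 50.4% with edgeR and 48.6% with DESeq2.

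Differences followed transcript length. In the lowest of 5 classes of genes by transcript length the median log2 difference was -0.64 and 48.3% were lower, whereas in the highest it was 0.82 and 56.1% were higher. Over 9639 genes with a length, Spearman's rho between the log2 difference and length was 0.51 (a description over genes of the same libraries). Further fits, chosen after the data were seen, give the size of this pattern. When each library was centred within 20 classes of transcript length, 1576 of 9639 genes (16.4%) were higher and 1811 (18.8%) lower, and 2574 of these calls were also made in the main comparison, with the same sign. When the slope itself was a term beside time, 61 of 9755 genes (0.625%) were called, and without D209001 10 of 9743 (0.103%), with 0 of the 61 among them. D209001 was the only library whose slope lay in the range of the other age, so the calls of the first fit rest on it and no gene is described by them. The median SE of the time difference over genes was 0.255 in the main comparison, 0.398 with the slope and 1.08 with the slope and without D209001. The slope and time were almost the same variable in these libraries, and the part of library make-up in each change below cannot be told apart from time. Gene groups are therefore given with their counts in the length-centred values.

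**Figure D2:**
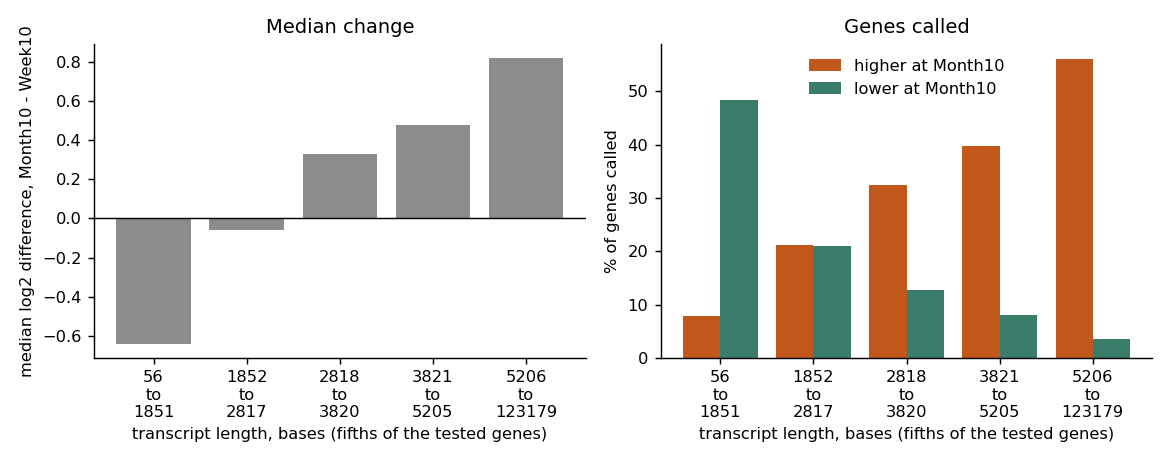
Log2 difference between Month10 and Week10 by transcript length. The bars on the left show the median log2 difference of each of 5 length classes of the 9639 genes, which goes from -0.64 to 0.82, and those on the right the percentage of genes called higher or lower at Month10.

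The sex-biased programme of the liver moved away from the male pattern at the older age. Of 27 tested genes known to be higher in male liver, 20 were lower at Month10 and 1 was higher (median log2 difference -1.19), and in the length-centred values 17 were lower and 0 higher (median -1.04). Of 34 tested genes known to be higher in female liver, 18 were higher and 2 lower (median 0.95), with 15 higher and 2 lower after centring (median 0.75). These counts are over both sexes, and some of the rises were seen in females and not in males, as given below. Among all genes 31.3% were higher and 18.9% lower, or 16.4% and 18.8% after centring. The medians of both lists kept their sign under each scaling. Without D209001, 21 of the male-biased genes were lower and 1 higher, and 17 of the female-biased genes were higher and 2 lower. Genes with Gm and Rik symbols set aside, 6 of the 15 largest falls were members of the male-biased list, and 4 of the 15 largest rises were members of the female-biased list.

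Mup11, a major urinary protein that carries pheromones, was at 581.4 to 5712 in the 4 Week10 females and at 22.18 to 264.1 in the 7 Month10 females. In males it ranged from 5627 to 55419 at Week10 and from 1404 to 6320 at Month10. Older females thus lay below every younger female. At Week10 the sexes overlapped only between the highest female and D209001, which held 5627. The fall was 3.50 on the log2 scale over both sexes, a log2 difference of -3.50 ± 0.55 (SE; limma, adjusted p = 4.4e-05). Members of the Mup family are near copies of one another, and the counting may have divided their reads among them.

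Slco1a1, a transporter of organic anions and steroid conjugates, was at 53.04 to 491.8 in Week10 females and at 0.8346 to 6.353 in Month10 females. Males had 340.8 to 753.7 at Week10 and 155.5 to 455.2 at Month10. The sexes overlapped at Week10 and stood far apart at Month10. Hsd3b5, a steroid dehydrogenase of male liver, had a median of 31.91 in Week10 females, and its values in Month10 females ran from 0 to 3.177. In males its median was 560.2 at Week10 and 62.15 at Month10, so it was lower at the older age in both sexes (-4.00 in females and -2.88 in males, both called). Serpina1e, an alpha-1-antitrypsin paralogue, showed a log2 difference of -3.29, Ugt2b38, a glucuronosyltransferase, -2.99, and Selenbp2, a selenium-binding protein, -2.78.

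Mup3 was the most abundant member, at 20250 to 47632 in Week10 females and 2028 to 3895 in Month10 females. In males it ran from 12732, in D209001, to 99998 at Week10 and from 16571 to 28556 at Month10 (log2 difference over both sexes -2.31 ± 0.35, adjusted p = 1.2e-05). Cyp2d9, a steroid hydroxylase of male liver, kept the sexes apart at both ages. It had 131.6 to 262.3 in Week10 females against 3750 to 4636 in Week10 males, and 16.85 to 150.2 against 1390 to 2160 at Month10. Its fall was called within females (-1.81) and within males (-1.19).

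In the opposite direction, the sulfotransferases of the Sult2a family, which add sulfate to steroids and bile acids, were higher in older females. Sult2a1 was at 8.658 to 189.7 in Week10 females and at 710.7 to 1258 in Month10 females, with no overlap. In males it was at 11.07 to 40.71 and at 21.38 to 30.16. Sult2a3 had 0 to 4.08 in Week10 females and 33.35 to 157.1 in Month10 females, and Sult2a7 had 19.6 to 93.84 and 246.2 to 1550. The Sult2a genes are also close copies of one another. Over both sexes, Hao2, a peroxisomal oxidase of hydroxy acids, showed a log2 difference of 2.42, Tox, a transcription regulator, 2.21, and Cyp3a16, a cytochrome P450, 1.94. Cyp3a16 was at 0 to 14.28 in Week10 females and 14.47 to 149.68 in Month10 females. In males it stayed low, at 0 to 3.56 and 0 to 4.45. A1bg, the most abundant female-biased gene, was not called over both sexes (1.07 ± 0.56, adjusted p = 0.11), while within females the difference was 2.09 and called.

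The age difference itself was tested between the sexes, as an interaction of time and sex. This called 28 of 9755 genes (0.287%), 26 without D209001, 51 with edgeR and 53 after length centring. The 6 with the smallest adjusted p follow. Sult2a3 rose in females (log2 difference 5.59) and had -1.04 in males, a difference between the sexes of -6.63 ± 0.79 (male minus female; adjusted p = 3.4e-05). For Slco1a1 the values were -5.61 in females and -0.90 in males, for Sult2a7 4.35 and -0.15, and for Sult2a1 4.79 and 0.17. Cyp2c38 ran the other way, with 2.09 in males and -0.66 in females. Cyp4a14, a fatty acid hydroxylase and target of PPAR alpha, was at 6.152 to 31.11 in Week10 males and 59.69 to 168.9 in Month10 males, and in females at 239.8 to 672.1 and 220.9 to 553.6. Its interaction was lost without D209001 (adjusted p = 0.061). Within females 4671 genes (47.9%) were called between the ages and within males 2029 (20.8%), but without D209001 the number in males was 4287, so these counts do not compare the sexes.

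**Figure D3:**
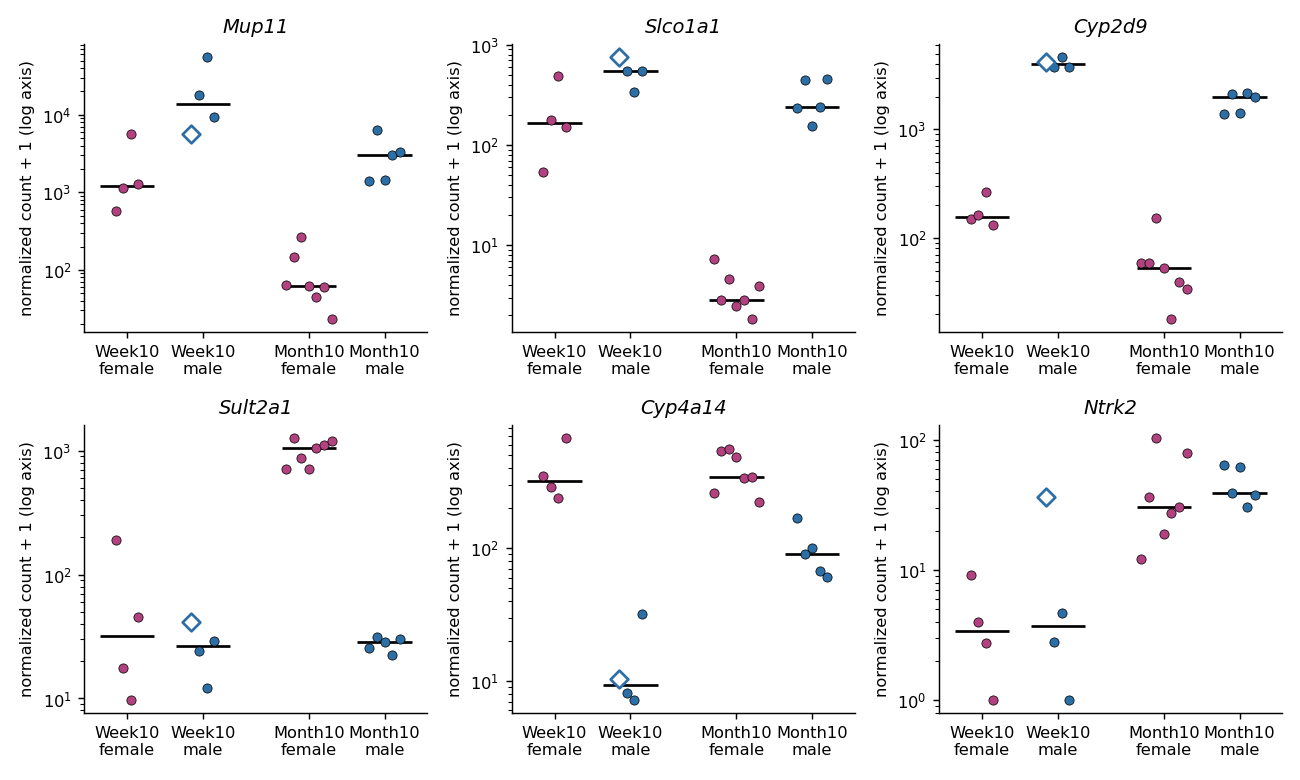
Normalized counts plus 1 (log axis) of Mup11, Slco1a1, Cyp2d9, Sult2a1, Cyp4a14 and Ntrk2 in each saline Mgmt-null library by time and sex. Points are libraries, bars are medians and the open diamond is D209001; for Mup11 (22.18 to 264.1) and Slco1a1 the Month10 females lie below the Week10 females, and Sult2a1 is high in Month10 females alone.

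Genes of the growth hormone and insulin-like growth factor axis were in part higher at Month10. Of 23 tested, 12 were higher and 0 lower (median 0.63), against 31.3% and 18.9% of all genes. After centring 7 were higher and 1 lower (median 0.39), against 16.4% and 18.8%, and without D209001 12 were higher and 2 lower. The transcription factors that carry the growth hormone signal stood apart in both groups. Stat5a was at 0 to 12.53 at Week10 and 12.66 to 31.82 at Month10, and Stat5b at 5.656 to 31.32 and 31.77 to 70.56. No library of one age reached into the other age for either gene, though the gap was narrow. Insr, the insulin receptor, showed a log2 difference of 1.63. Igf1, the hormone that liver releases in response to growth hormone and the most abundant gene of the list, was not called (-0.50 ± 0.14, adjusted p = 0.0049, below the size threshold), and it was called lower after length centring (-1.24). Its groups were apart without D209001, at 3402.5 to 5759.08 at Week10 and 2612.04 to 3187.74 at Month10, and D209001 held 2241.14.

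Promoters of sex-biased genes were searched for the letters TTCNNNGAA, to which STAT5 binds, on both strands of windows from 250 bases before to 50 after the RefSeq start sites (GRCm38.p6). They were found in 3 of 25 windows of male-biased genes (12%), 6 of 39 of female-biased genes (15.4%) and 8.3% of all 32851 windows. One stretch is shown because its gene, Slc22a26, an anion transporter of female liver, was called higher (0.99). It lies 141 bases before the start site, at chr19:7802790-7802818 on the minus strand, with the matching letters in capitals. A match is only a description of these letters.
Slc22a26: ctggctaattTTCAGGGAAtttacaaatc

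Genes of fatty acid synthesis were higher in older liver. Of 26 tested, 16 were higher and 1 lower (median 1.00), against 31.3% higher and 18.9% lower of all genes. After length centring 14 were higher and 1 lower (median 0.72), against 16.4% and 18.8%, and without D209001 16 were higher and 2 lower. Fasn, fatty acid synthase, ranged from 63.98 to 387.3 at Week10 (median 122) and from 279.3 to 952.3 at Month10 (median 637.3). Week10 libraries were low apart from 1, and the groups were apart without D209001. The log2 difference was 2.14 ± 0.22 (adjusted p = 1.2e-07). Tkfc, triokinase, which feeds fructose carbon into lipid synthesis, was at 71.18 to 199.4 at Week10 and 276.3 to 563.8 at Month10, with no overlap (log2 difference 1.94 ± 0.19, adjusted p = 6.5e-08). Scd1, the desaturase that makes oleate and the most abundant gene of the list, had a median of 1955 at Week10 and 11070 at Month10. The groups overlapped for it, with and without D209001, which held 14122. Me1, malic enzyme, showed 1.89, Fads2, a desaturase of long chains, 1.65 and Elovl6, an elongase, 1.61.

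Cholesterol synthesis moved likewise, with 14 of 24 tested genes higher and 1 lower (median 0.70), against 31.3% and 18.9% of all genes. After centring 8 were higher and 0 lower (median 0.33), against 16.4% and 18.8%, and without D209001 14 were higher and 1 lower. Dhcr7, a reductase late in the pathway, ran from 11.2 to 116.9 at Week10 and from 93.32 to 360.3 at Month10 (log2 difference 2.26 ± 0.31, adjusted p = 3.0e-06). Mvd, a decarboxylase of the mevalonate pathway, showed 1.67 and Hmgcs1, the synthase at the pathway's entry, 1.30. The letters CACNCCAC of a sterol element stood in 3 of 20 promoter windows of the cholesterol genes (15%), 2 of 28 of the fatty acid genes (7.14%) and 6.24% of all windows. The stretch of Hmgcs1 is shown as the gene was called higher; it lies 136 bases before the start site, at chr13:119690205-119690232 on the plus strand, with the letters in capitals.
Hmgcs1: gtcaccgtctCACCCCACttcccaggtc

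Other genes of lipid handling were higher in part, and are read against the 31.3% higher and 18.9% lower of all genes, or 16.4% and 18.8% after centring. Of 24 tested genes of lipid droplets and PPAR gamma targets, 10 were higher and 2 lower (median 0.55; after centring 11 and 3, median 0.57; without D209001 9 and 2). Vldlr, a lipoprotein receptor, showed 2.35 and Cidec, which enlarges droplets, 1.30. Cidec was at 1.23 to 8.48 in Week10 males and 8.02 to 89.43 in Month10 males, with D209012 (54.73) and D209013 (89.43) highest. In females it was at 0 to 2.6 and 0 to 5.62. Cd36, a fatty acid transporter, was at 39.15 to 110.2 at Week10 and 96.21 to 219.9 at Month10 (1.30 ± 0.17, adjusted p = 2.2e-06). Of 30 tested genes of fatty acid oxidation and ketogenesis, 13 were higher and 4 lower (median 0.45; after centring 9 and 2, median 0.25; without D209001 13 and 6). Ppara, the receptor that governs them, showed 1.23 and Fabp1, the abundant fatty acid carrier, -1.03, a call that was lost after length centring (-0.15). Mfsd2a, a transporter of lysophospholipids, was among the 15 largest rises, with 13.53 to 98.12 at Week10 and 122 to 289.7 at Month10. Its groups did not overlap (2.51 ± 0.26, adjusted p = 1.5e-07). Apom, the apolipoprotein that carries sphingosine phosphate, went the other way, from 503.1 to 2154 at Week10 to 146.8 to 368.9 at Month10. All older libraries were below all younger ones, the fall was 2.51 on the log2 scale (adjusted p = 1.5e-09), and the call held without D209001 (-2.69) and after length centring (-1.92).

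**Figure D4:**
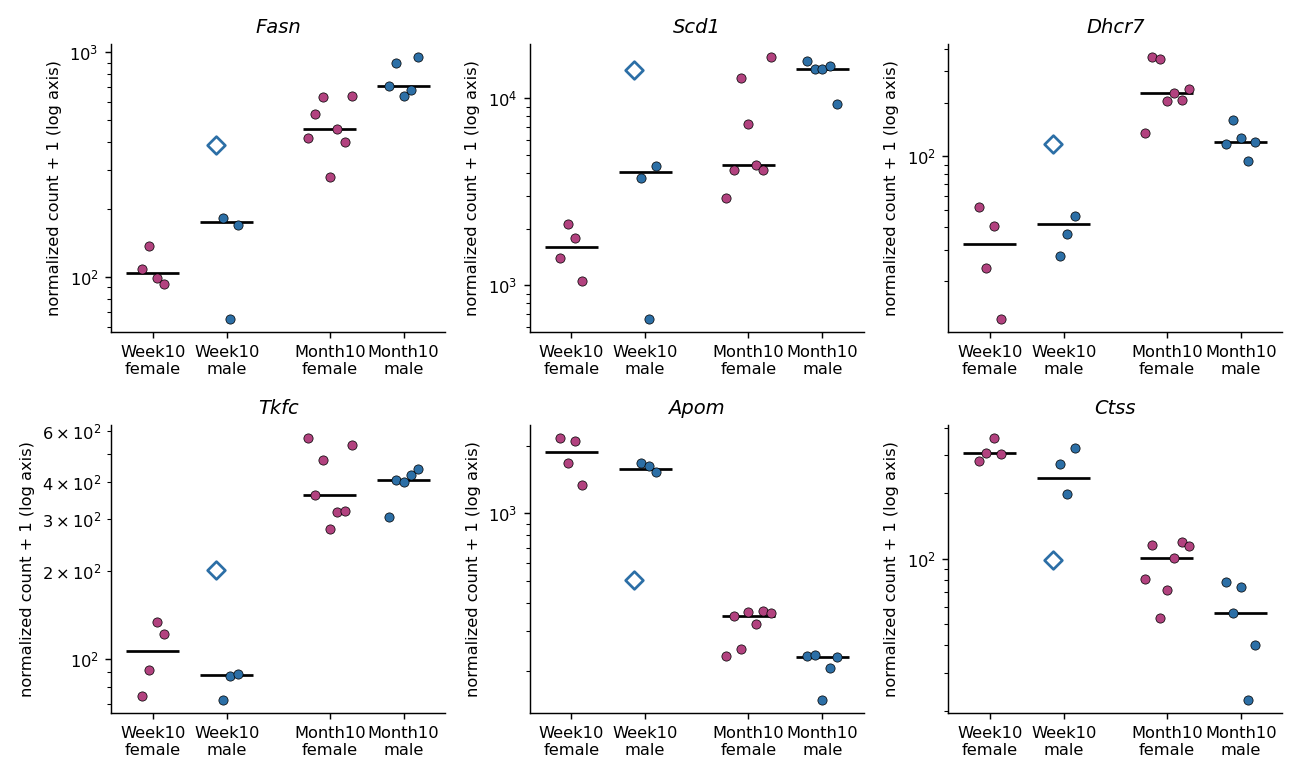
Normalized counts plus 1 (log axis) of Fasn, Scd1, Dhcr7, Tkfc, Apom and Ctss in each saline Mgmt-null library by time and sex. Points are libraries, bars are medians and the open diamond is D209001; the ages do not overlap for Tkfc (71.18 to 199.4 against 276.3 to 563.8) or Apom.

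Liver transcription factors and nuclear receptors were higher at Month10 for 17 of 31 tested genes and lower for 3 (median 0.86). The numbers were 9 and 2 after centring (median 0.48), and 17 and 3 without D209001. Among all genes the shares were 31.3% and 18.9%, or 16.4% and 18.8% after centring. Esr1, the oestrogen receptor, had a median of 33.31 at Week10 and 102.8 at Month10 (1.53 ± 0.21). Hnf4a, the central regulator of hepatocyte genes, was at 141.4 to 290.2 and 303.1 to 682.9, without overlap (1.28 ± 0.18). Onecut2, a hepatocyte factor, showed 1.68. These are long transcripts, and centring lowered each value, to 0.88 for Esr1, 0.83 for Hnf4a and 0.87 for Onecut2, with every one still called.

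Pericentral genes, those expressed around the central vein, were higher for 15 of 23 tested and lower for 2 (median 0.79). The numbers were 13 and 0 after centring (median 0.73), and 15 and 3 without D209001. Of all genes 31.3% were higher and 18.9% lower, or 16.4% and 18.8% after centring. Lgr5, the receptor for R-spondin, had a median of 2.814 at Week10 and 14.9 at Month10 (2.06 ± 0.35), and Gulo, which makes vitamin C, 178.6 and 526.8 (1.39 ± 0.18). Some abundant members had lower medians at Month10. Over both sexes, Car3, the most abundant, had 8965 at Week10 and 3828 at Month10. For Cyp2e1, a P450, the medians were 5285 and 4024, and for Mup17, of the Mup family, 1955 and 477.7. The ranges of the ages overlapped for each of these. Periportal genes, read against the same shares, were divided, with 5 of 21 higher and 6 lower (median 0.01, and after centring 5 and 6, median 0.10). Pigr, which carries IgA into bile, showed 1.69, and Cyp2f2, a P450 of the portal side, -1.12. The difference between the lists was not tested.

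Clock genes were higher for 10 of 22 tested, against 31.3% of all genes, and lower for 1 (median 0.58), for 5 and 2 after centring (median 0.10), near the 16.4% and 18.8% of all genes, and for 11 and 2 without D209001. Noct, a rhythmic phosphatase, ran from 5.339 to 48.48 at Week10 and from 19.94 to 139.3 at Month10 (2.06 ± 0.28), Per1, a repressor of the clock, showed 1.98, Tsku, a secreted hepatokine often listed with rhythmic genes, 1.84 and Rora, a receptor that drives Bmal1, 1.15, which was lost after centring (0.33). The clock hour at which livers were taken is not given in the sources used here. The E-box letters CACGTG stood in 8 of 27 promoter windows of the list (29.6%) and in 7.15% of all, and the D-box letters TTANGTAA in 1 (3.7%) and in 2.32% of all. The stretch of Per1 is shown as the gene was called higher; it lies 166 bases before the start site, at chr11:69098773-69098798 on the plus strand.
Per1: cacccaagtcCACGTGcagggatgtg

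Genes of tissue macrophages were lower in older liver. Of 21 tested Kupffer cell and macrophage genes, 13 were lower and 1 higher (median -0.95), against 18.9% and 31.3% of all genes. After centring the numbers were 10 and 1 (median -0.74), against 18.8% and 16.4%, and without D209001 13 and 1. C1qb, a chain of complement C1q, was at 45.93 to 156.7 at Week10 and 9.72 to 88.47 at Month10 (-1.40 ± 0.24), Cd68, a lysosomal marker, showed -1.60 and Aif1, an actin-binding marker, -1.67. In bulk tissue fewer cells of a type and less RNA per cell cannot be told apart. The summed share of the list was 0.0542% to 0.107% of reads at Week10 (median 0.0781%) and 0.0295% to 0.163% at Month10 (median 0.0701%). These overlapped widely, and the most abundant gene, the iron exporter Slc40a1, was not called (0.05 ± 0.16, adjusted p = 0.79). No gene of the list was at 0 in all 20 libraries.

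Counts for genes of antigen presentation, chemokines and other immune cells are read against the 31.3% higher and 18.9% lower of all genes. After centring those shares were 16.4% and 18.8%. Presentation by MHC class II showed 4 of 7 tested genes lower and 0 higher (median -0.70, and after centring 3 and 0, median -0.29). Ctss, the protease that trims the invariant chain, was at 98.12 to 355.8 at Week10 and 21.38 to 117.7 at Month10, apart without D209001 (-1.90 ± 0.23, adjusted p = 6.6e-07), and H2-Aa, a class II chain, showed -1.39. Class I presentation was divided, with 5 of 17 genes higher, near the share of all genes, and 5 lower (median 0.14, and after centring 4 and 2). Chemokines and cytokines were lower for 7 of 18 and higher for 1 (median -0.83; after centring 5 and 0, median -0.41). Ccl6 went from a median of 66.61 to 14.69 (-2.28 ± 0.27) and Ccl24 from 32.47 to 4.599 (-2.14 ± 0.32). Of the T and NK cell list 3 of 30 genes had a mean of at least 5, and 2 were lower, also after centring, with Cd52 at -1.56. The neutrophil list had 3 tested and 1 lower and the dendritic cell list 2 and 1, with 0 called in either after centring. The B and plasma cell list had 5 tested with 2 higher and 0 lower, the same numbers as after centring. Those 2 were Jchain, the joining chain of IgA and IgM (1.71 ± 0.51), whose Month10 values ran from 1.737 to 179.2, and Sdc1 (1.24), a proteoglycan that hepatocytes express too. Xbp1, the most abundant gene of that list, was not called (-0.24).

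Interferon-stimulated genes were lower for 13 of 39 tested and higher for 5 (median -0.14, and after centring 11 and 2, median -0.29). Of all genes 18.9% were lower and 31.3% higher, or 18.8% and 16.4% after centring. At the same total 8 genes of the list were higher and 6 lower (median 0.25). The sign of the list median thus changed with the scaling. It lay below the median of all genes each time (0.23, -0.01 after centring and 0.61 at the same total). Without D209001 14 were lower and 6 higher. Rtp4, a receptor chaperone, went from a median of 98.45 to 22.99 (-1.75 ± 0.26, adjusted p = 6.4e-06). Ifi27, a mitochondrial interferon-induced protein, was at 418.6 to 889.1 at Week10 and 109.6 to 319 at Month10, without overlap (-1.60). Stat2, which relays the interferon signal, was higher, with 11.2 to 37.58 and 40.9 to 67.39. The interferon element (GAAA, any 2 bases and GAAA again, on either strand) stood in 25 of 43 promoter windows of the list (58.1%) and in 3.44% of all.

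Among structural cells, endothelial genes were divided, 6 of 24 higher and 3 lower (median 0.16), and 1 and 5 after centring (median -0.28). Clec4g, a lectin of sinusoidal endothelium and the most abundant of the list, fell (-1.74 ± 0.22), and Stab1, a scavenger receptor of the same cells, rose (1.17 ± 0.27), a call lost after centring (0.43). Stellate cell and fibroblast genes were higher for 5 of 20 and lower for 1 (median 0.43), and for 3 and 1 after centring (median -0.08). Collagen and matrix genes were higher for 8 of 23 and lower for 1 (median 0.53), and for 2 and 1 after centring (median 0.14). The shares of higher genes in these 3 lists were thus near or below those of all genes, 31.3% and 16.4% after centring. Counts of lower genes in this paragraph are read against the 18.9% lower of all genes, or 18.8% after centring. Col18a1, a basement membrane collagen, had 1.20 and Fn1, fibronectin, 1.17, and neither was called after centring. Cholangiocyte genes had 1 of 6 higher and 0 lower, also after centring, and fat tissue genes 1 of 4 higher and 1 lower (after centring 2 and 1). Of the pancreas list 1 gene was tested, and it was lower in both. None of the 8 kidney genes reached a mean of 5. Red cell genes were lower for 4 of 6 and higher for 0 (median -1.33), but Hba-a1 and Hba-a2 had the same values in all 20 libraries and so count the same reads under 2 names. After centring 0 were called. Hbb-bs, a beta globin of blood, went from a median of 4753 to 1617.

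Genes of protein synthesis and respiration were lower, and their counts are read against the 18.9% lower of all genes, or 18.8% after centring. Of 47 tested cytosolic ribosomal protein genes, 43 were lower and 1 higher (median -1.33), and 32 and 1 after centring (median -0.84). Without D209001, 45 of 48 were lower and 1 higher. Rps14, the most abundant, was at 1600 to 6332 at Week10 and 579.7 to 2442 at Month10 (-1.72 ± 0.22, adjusted p = 1.3e-06), and Rplp0, a stalk protein, at 256.8 to 1441 and 185.8 to 328 (-1.85 ± 0.22). For both genes the ages were apart without D209001. Of 53 nuclear genes of oxidative phosphorylation, 38 were lower and 0 higher (median -1.01), with 16 lower and 1 higher after centring (median -0.32) and 42 lower and 0 higher without D209001. Cox5a, a subunit of cytochrome oxidase, showed -1.70 and Ndufa4, another subunit of the respiratory chain, -1.71. Their transcripts are short, and the ribosomal share also entered the description of the libraries above; the part of library make-up in these falls cannot be told apart from time.

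**Figure D5:**
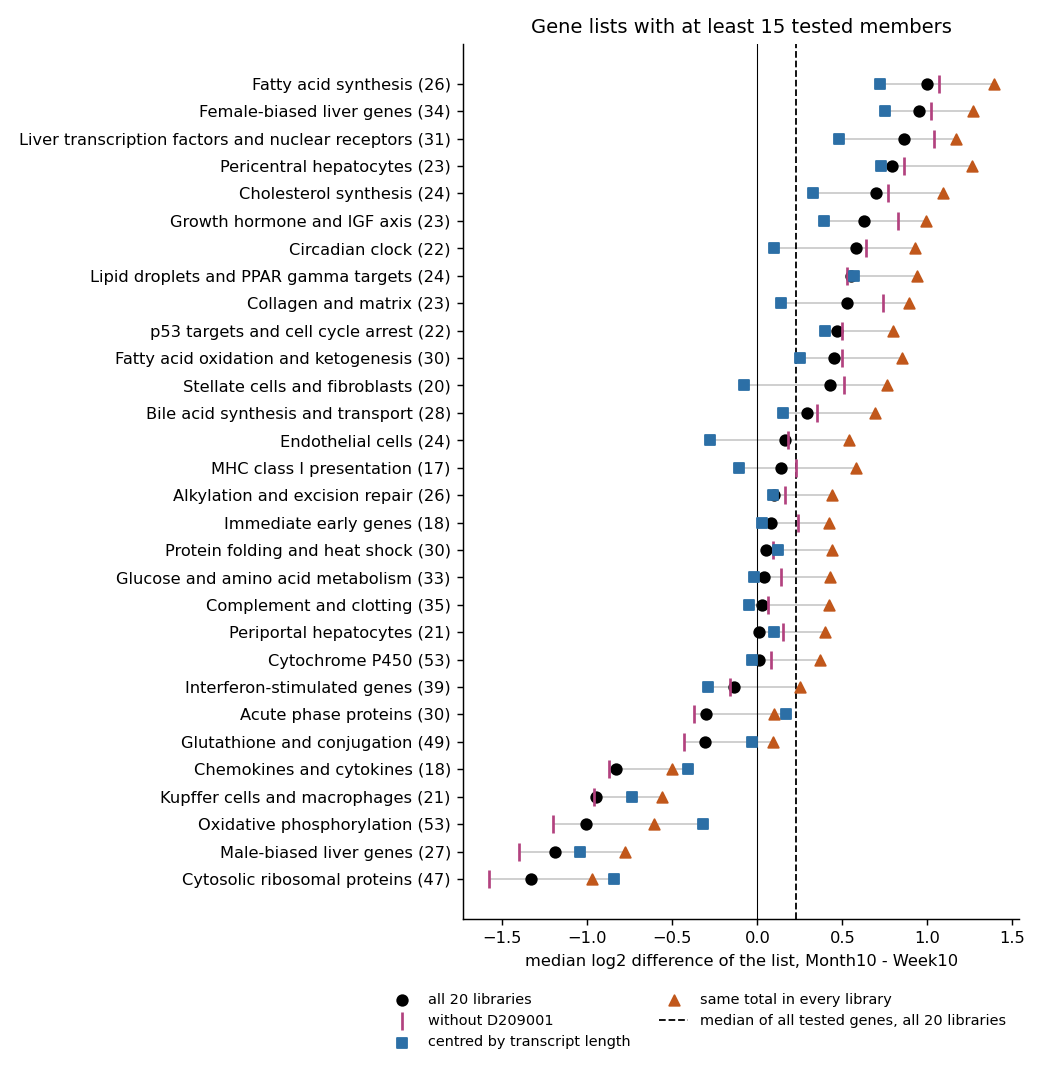
Median log2 difference between Month10 and Week10 of each gene list with at least 15 tested members (number in brackets), in all 20 libraries, without D209001, after length centring and with every library at the same total. The dashed line is the median of all tested genes in all 20 libraries, 0.23. That median was 0.27 without D209001, -0.01 after length centring and 0.61 at the same total, so those points have another reference. In all 20 libraries fatty acid synthesis and female-biased genes lie highest and ribosomal protein genes lowest. After length centring male-biased genes lie below ribosomal protein genes.

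Among genes of metabolism and plasma proteins, the acute phase, complement and glucose lists had shares near or below the 31.3% higher and 18.9% lower of all genes. After centring the shares of all genes were 16.4% and 18.8%. Hepatocyte markers were higher for 2 of 9 and lower for 5 (median -0.64, and after centring 2 and 3), with Alb, albumin, at 0.67 and Ttr, transthyretin, at -1.30. Acute phase genes were higher for 5 of 30 and lower for 6 (median -0.30 and 0.10 at the same total; after centring 5 and 3, median 0.17), and complement and clotting genes for 11 and 6 of 35 (median 0.03, and after centring 6 and 4). C3, the central complement protein, was at 2722 to 3752 in Week10 females and 9897 to 16405 in Month10 females. In males it was at 1510 to 5716, with D209001 highest, and at 3346 to 5128 (1.48 ± 0.22 over both sexes). F5, clotting factor V, was at 192.3 to 650.3 and 777.2 to 1240, with no overlap (1.83 ± 0.18). Glucose and amino acid genes were higher for 6 of 33 and lower for 5 (median 0.04, and after centring 4 and 4), and bile acid genes for 10 and 6 of 28 (median 0.29, and after centring 4 and 5). Akr1c6, a hydroxysteroid dehydrogenase and the most abundant of the bile acid list, was at 4618 to 6131 and 1564 to 3012, without overlap (-1.21 ± 0.15). Cytochrome P450 genes were higher for 7 of 53 and lower for 13 (median 0.01, and after centring 8 and 10), and glutathione and conjugation genes for 11 and 13 of 49 (median -0.31, and 0.09 at the same total, and after centring 9 and 9). Gstp1, a glutathione transferase, was at 130.6 to 310.8 in Week10 females and 7.237 to 34.22 in Month10 females. In males it had a median of 2911 at Week10, where D209001 was lowest at 83.51, and of 291.6 at Month10 (-2.70 ± 0.55 over both sexes).

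Counts for genes of growth and damage are read against the 31.3% higher and 18.9% lower of all genes, and the repair, folding and immediate early lists were near or below these shares. After centring the shares of all genes were 16.4% and 18.8%. Of 40 cell division genes 12 were tested, and 4 were lower and 1 higher (median -0.17, and after centring 4 and 2). Top2a, a topoisomerase of dividing cells, was at 2.461 to 19.8 and 0 to 8.865 (-1.34 ± 0.41), Tk1, thymidine kinase, showed -1.29, and Ccnd1, cyclin D1, 1.37. Among p53 targets 9 of 22 were higher and 2 lower (median 0.47; after centring 6 and 3, median 0.40), with Mdm2, which degrades p53, at 1.97 and Sesn1, a stress protein, at -1.35. Cdkn1a, the p21 inhibitor of cell division, was at 1.511 to 8.485 and 1.478 to 23.45 and was not called (0.62 ± 0.40, adjusted p = 0.18). Alkylation and excision repair genes were higher for 6 of 26 and lower for 4 (median 0.10, and after centring 5 and 5). Apex1, the endonuclease of base excision repair, went from a median of 120.8 to 29.13 (-1.82 ± 0.36) and Polb, its polymerase, from 75.81 to 31.57 (-1.19 ± 0.20), while Parp1, which senses strand breaks, showed 1.22. Folding and heat shock genes were higher for 9 of 30 and lower for 5 (median 0.05, and after centring 5 and 4), with Calr, a chaperone of the endoplasmic reticulum, at 1.60. Immediate early genes had 3 of 18 higher and 4 lower (median 0.08, and after centring 2 and 2), and fetal and imprinted growth genes 0 of 7 higher and 1 lower (median 0.03, and after centring 1 and 1).

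With those symbols set aside, the largest rise was that of Ntrk2, the receptor for brain-derived neurotrophic factor, which is also female-biased in liver (3.35 ± 0.50, adjusted p = 1.1e-05). It was at 0 to 8.16 in Week10 females, 0 to 35.49 in Week10 males and 11.12 to 101.3 at Month10, and D209001 was the only Week10 library inside the older range. Others of the 15 largest rises had no place in the groups above. Gpc1, a heparan sulfate proteoglycan, showed 2.96, Rara, a retinoic acid receptor, 2.77, Atg9a, a lipid scramblase of autophagy, 2.73, Bap1, a deubiquitinase of chromatin, 2.35, and Hipk2, a kinase, 2.32. Also among them were Zfp523 (2.78), Mta1 (2.36) and Igsf11 (2.33). Gpc1, Rara, Zfp523 and Mta1 had Week10 means of 3.07, 3.508, 2.331 and 4.941. They passed the filter, a mean of at least 5, only through Month10, where they were high. Among the 15 largest falls were Clec2h (-2.75), Serpina4-ps1 (-2.75), Mup13 (-2.55), Ptgds, a prostaglandin synthase (-2.53), Entpd3 (-2.51), the small nucleolar RNA Snora30 (-2.43) and Cd300e, a receptor of myeloid cells (-2.42). Clec2h, Ptgds, Entpd3 and Cd300e had Month10 means of 2.94, 2.527, 3.564 and 3.412, and passed the filter only through Week10. Reads of Snora30, which lies within another gene, may belong to that gene.

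The same ages were compared in other mice of the series, which share no library with these 20. In Mgmt-null mice given NDMA (8 and 13 libraries), 4893 of 10164 genes (48.1%) were called, and of the 9554 genes tested in both sets 3616 were called in both with 1 sign. These were 74.5% of the 4853 saline calls and 77.1% of the 4688 NDMA calls among those genes, and after length centring of both sets the shares were 65.2% and 66.9%. In WT saline mice (8 and 10 libraries), 5542 of 8997 genes (61.6%) were called, and of the 8937 genes tested in both sets 3888 were called in both with 1 sign. These were 83.6% of the 4653 saline Mgmt-null calls and 70.5% of the 5515 WT calls among those genes, and 72.8% and 59.9% after length centring. The length slope separated the ages there as well. It was -0.475 to -0.315 at Week10 and 0.036 to 0.398 at Month10 in WT, and under NDMA 2 Month10 males (D209016 and D209018) were at -0.288 and -0.308, inside the Week10 range of -0.344 to -0.155. Month10 minus Week10 values for Fasn were 2.14 in saline Mgmt-null, 2.32 in NDMA and 2.89 in WT livers, and for Apom they were -2.51, -1.38 and -2.79.

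A term for time by treatment tested where the age difference departed between saline and NDMA in Mgmt-null livers. It called 47 of 10020 genes (0.469%), 100 without D209001, D209016 and D209018. Mup11 fell in saline livers (-3.50) and had 1.38 in NDMA livers, a difference of -4.92 ± 0.89 (saline minus NDMA; adjusted p = 0.0044). Under NDMA its median was 281.8 at Week10 and 284.1 at Month10, so the younger NDMA livers were already low. Cd36 was at 137.3 to 218.2 in Week10 NDMA livers, above every Week10 saline liver, and its age difference was -0.03 there and 1.30 in saline livers (difference 1.34 ± 0.23, adjusted p = 0.0025). Hao2 had 2.42 in saline and -0.71 in NDMA livers (difference 3.14), and Raet1e, a stress ligand of the NKG2D receptor, 2.14 and -0.65 (difference 2.75); Raet1 genes are near copies. Cdkn1a fell with age under NDMA (-2.22; difference 2.82), from a median of 169.9 to 35.46. Sprr1a, a cornified envelope protein, was at 0 in all 8 Week10 saline libraries and at most 1.944 at Month10, and it passed the filter only through the NDMA livers. Its difference of 3.33, not called with edgeR, is therefore set by the NDMA livers (-2.74) and says nothing of saline livers.

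A term for time by genotype called 450 of 9468 genes in saline livers (4.75%), of which 418 had a smaller or more negative age difference in Mgmt-null livers. With edgeR 276 were called, 187 of them in that direction, and after length centring 191, 122 of them in that direction, so the imbalance was smaller in both. Batch was a term in this fit. All Mgmt-null libraries carried 1 batch label, which 2 females and 1 male of the Month10 WT libraries shared and no Week10 WT library did. The genotypes were also normalized in separate tables, so genotype and batch can be told apart only in part. The 6 smallest adjusted p belonged to Fam120a (difference -3.07 ± 0.34, Mgmt-null minus WT, adjusted p = 6.5e-08), Taf10 (-2.33), Tef (-2.21), Rnf149 (-1.97), Txndc5 (-1.86) and Prkar2a (-1.61). Each was called higher with age in WT livers, from 1.58 for Rnf149 to 2.74 for Tef, a clock-output factor, and none was called in saline Mgmt-null livers. Fam120a was at 109.6 to 246.1 in Week10 Mgmt-null livers and at 10.49 to 21.12 in Week10 WT livers.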

How the data were processed

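RNA came from whole liver, and 3′ digital gene expression libraries with unique molecular identifiers were sequenced. Per the paper's methods and the submitters' processing notes, the authors aligned reads with STAR to GRCm38 (mm10), counted them with ESAT and divided counts by DESeq2 size factors; versions are not given in the sources used here. The deposited values are this normalized signal, in 1 table per genotype. Multiplied by a size factor read from the smallest steps, 100% of values in the 20 libraries came out whole within 0.1 reads, and edgeR 4.0.16 and DESeq2 1.42.0 were run on those reads as alternatives. Genes with a mean of at least 5 were tested with limma 3.58.1 (trend, robust) on log2(value + 1), with Benjamini-Hochberg adjustment. The fitting code was checked on simulated counts. Single library values used exact permutation tests. WT fits had batch as a covariate. Transcript lengths came from GENCODE vM21 and promoters from RefSeq. Tests covered 9755 of the 19540 genes. Named genes were Mgmt, the 15 called genes that rose most and the 15 that fell most (without Gm and Rik symbols), up to 6 called members and the most abundant member of each list, and the 6 smallest adjusted p of each interaction. A few of them are left out here. Slc22a26 was named after its values were seen. Members and lists were chosen with earlier results of these data known. Whether molecular identifiers were collapsed is not given in the sources used here.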

Additional observations from a re-analysis of the deposited data

Results flagged for a closer look

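D209001 lay far from the other 7 Week10 libraries in 3 of 5 measures of make-up: its 50 most abundant genes took 33.631% of reads, its length slope was 0.302 and its mean correlation with the other Week10 libraries was 0.794. The gap between an extreme library and its neighbour was compared with the range of the 8 libraries by Dixon's criterion, on the log2 scale for genes, and chance alone flags about 1 in 20 groups. Among 115 genes of the text 27 were set apart in this way at Week10, 25 of them by D209001. In D209001 the normalized count was 67.85 for Atg9a, 28.18 for Igsf11, 693.1 for Fads2, 513.6 for Ppara, 1233 for Pigr, 202.5 for Rora, 297.5 for Sdc1, 1135 for Fn1, 1068 for Col18a1, 650.3 for F5 and 1219 for Calr, each above the other Week10 libraries. It was below them for Apom (503.1), Cd300e (4.175), C1qb (45.93), Aif1 (19.83), Cd52 (33.4), Ctss (98.12), Ccl24 (4.175), Rtp4 (18.79), Clec4g (49.06), Ttr (12837), Tk1 (8.351), Rplp0 (256.8), Cox5a (301.7) and Ndufa4 (1912). In other libraries Clec2h was low in the female D209028 (2.8) and Parp1 in the female D209025 (6.12).

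Age differences departed between the sexes for 28 genes by the interaction in limma, first for Sult2a3 (male minus female -6.63), Slco1a1 (4.70), Sult2a7 (-4.49), Sult2a1 (-4.62), Cyp2c38 (2.75) and Cyp4a14 (2.89). Between saline and NDMA they departed for 47 genes, first for Cd36 (saline minus NDMA 1.34), Cdkn1a (2.82), Sprr1a (3.33), Hao2 (3.14), Raet1e (2.75) and Mup11 (-4.92). Between the genotypes they departed for 450 genes, first for Fam120a (Mgmt-null minus WT -3.07), Rnf149 (-1.97), Taf10 (-2.33), Prkar2a (-1.61), Tef (-2.21) and Txndc5 (-1.86).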

How the results depend on the processing

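Leaving out 1 library at a time gave 4571 to 5636 called genes against 4902, with the highest without D209001 and at most 4901 without any other. Males alone gave 1180, the length slope as a term 61, and the slope without D209001 10. With the slope 89 of 113 named genes lost their call with the sign unchanged, and 80 without D209001. In WT livers a mean of at least 20 gave 3486 against 5542. The interaction with treatment gave 100 without D209001, D209016 and D209018 against 47, that with genotype 276 with edgeR and 191 after length centring against 450, and that with sex 51 and 53 against 28. Within males 4287 genes were called without D209001 and 1299 after centring, against 2029. Other counts of called genes in these comparisons stayed within 1.5 times the main count. Pseudocounts of 0.5 and 5, no filter, no covariate and a call by adjusted p alone reversed no named gene. The alternatives that centre on length, take its slope as a term or leave out the named libraries were chosen after seeing the data; the cause of a moved value was not tested. No paired analysis was possible because each library has an identifier of its own that no other group shares.

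None of the named genes whose sign turned was called in both directions. With the slope as a term these were Gstp1 (0.41), Ttr (0.41), Tk1 (0.37), Fabp1 (0.04), Xbp1 (0.51), Txndc5 (0.03) and Slc40a1 (-0.08). With the slope and without D209001 they were Hipk2 (-2.18), Cyp2c38 (-2.25), Onecut2 (-1.37), Cidec (-1.28), Prkar2a (-1.26), Taf10 (-1.08), Tef (-0.31), Ppara (-0.20), Hnf4a (-0.20), Ccnd1 (-0.16), Elovl6 (-0.13), Tox (-0.01), Insr (-0.01), Entpd3 (0.00), Mup13 (0.05), C1qb (0.07), Polb (0.07), Akr1c6 (0.23), Top2a (0.40), Ugt2b38 (0.54), Rnf149 (0.54), Cd52 (0.59), Sesn1 (0.62), Rps14 (1.23), Tk1 (1.81) and Hbb-bs (2.00). In males alone they were Sult2a7 (-0.15), A1bg (-0.10), Slc40a1 (-0.07), Fam120a (0.13) and Txndc5 (0.54), and in females alone Cyp2c38 (-0.66) and Taf10 (-0.03). At the same total Xbp1 was at 0.15 and Txndc5 at 0.31. Slc40a1 was at -0.03 with edgeR and -0.06 with DESeq2. After length centring Slc40a1 was at -0.37, Taf10 at -0.32 and Prkar2a at -0.27, and without D209001 as well at -0.40, -0.47 and -0.38. In edgeR without D209001 Cyp2c38 was at -0.01, Slc40a1 at -0.01 and Taf10 at -0.05. With 1 library left out, Slc40a1 ranged from -0.02 to 0.11 and Txndc5 from -0.15 to 0.02.

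Depth limits genes of low count: Mgmt rested on at most 5 reads in a library.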

Other observations

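Other genes whose age change departed between saline and NDMA livers were Slco1a1 (-3.42 in saline and 0.70 in NDMA livers), Hsd3b5 (-3.48 and 0.76), Mup13 (-2.55 and 0.93), Mup12 (-1.07 and 1.14) and Cyp7b1, an oxysterol hydroxylase (-1.19 and 0.75). Among genes whose change departed between the sexes, Fads1, a desaturase of polyunsaturated fatty acids, was at -1.19 in females and 0.54 in males, and Elf5, a transcription factor, at -2.05 and 0.49.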
